A study of Sesbania grandiflora with 21 samples.

Results

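Leaves of Sesbania grandiflora, a fast-growing legume tree, were compared here between the 2 single treatments at suffix S, labelled DS-S and Y-S. The libraries were chosen by their titles, which gave 3 DS-S and 3 Y-S libraries, 6 of the 21 in the series. The single treatments at the other suffix (DS-L and Y-L, 3 libraries each), the combined treatments DS+Y-S and DS+Y-L, and the 3 libraries labelled ck, were used only where named. Drought and salt stress in combination are named in the title of the series, but no label used here says which letters stand for which stress or what S and L mean, and none gives a dose, a duration, a plant age or a number of plants. Whether replicates are different plants is not stated by the labels, so all p-values rest on a spread between libraries that may be technical. Messenger RNA was captured with oligo(dT) beads in every library, per the labels' protocols.

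Drought and salt are 2 stresses that overlap in plants. Both lower the water available to the leaf, and both are known to raise abscisic acid, the hormone that closes stomata and switches on genes for osmotic protection. Salt adds a toxic load of sodium and chloride, which plants meet with ion pumps, exclusion at the root and storage in the vacuole. A direct contrast of 2 single treatments asks for genes whose level depends on which of them was given. Genes in the deposited table carry only identifiers of a de novo assembly, without names, so the markers of these pathways and of leaf tissue could not be matched, and no gene is given a function here.

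The DS-S libraries held 20138058, 18112741 and 17987004 counts, and the Y-S libraries 16738824, 17060737 and 17650075 counts, so the groups did not overlap in depth (exact permutation test, two-sided, p = 0.1, the smallest p that 3 against 3 libraries allow). Genes with at least 1 count numbered 61454, 56073 and 56251 in DS-S libraries and 57442, 55003 and 53367 in Y-S libraries. The means were 57926 ± 3057 in DS-S and 55271 ± 2051 in Y-S (SD, n = 3 each), and the libraries of the groups overlapped (exact permutation test, two-sided, p = 0.4). At a common total of 16738824 counts the difference in means was 1934 genes in place of 2655. The 100 most counted genes took 20.8%, 19.0% and 12.9% of the counts in DS-S libraries and 17.4%, 19.1% and 13.2% in Y-S libraries, so replicate 3 had the lowest share of each group (exact permutation test between the groups, two-sided, p = 0.8). Replicate 3 of each group also stood apart in single genes. Levels are given as CPM, the counts of a gene scaled by library size with the TMM factors of edgeR. Genes at 5 CPM or more whose level exceeded that of the other 5 libraries by 4-fold or more numbered 91 for DS-S replicate 3 and 106 for Y-S replicate 3, against 14 and 9 for DS-S replicates 1 and 2 and 34 and 6 for Y-S replicates 1 and 2.

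Whole profiles did not separate the single treatments. Each of the 6 libraries had its closest match, among all 21 libraries, in the other group. DS-S replicate 1 was closest to Y-S replicate 2, DS-S replicate 2 to Y-S replicate 1, and DS-S replicate 3 to Y-S replicate 3, and each match was mutual. The distances of these matches, taken as the root-mean-square difference in log2 CPM over the 38211 genes tested, were 0.882, 0.825 and 1.03. DS-S libraries differed among themselves by 0.966 to 1.31, and Y-S libraries by 0.896 to 1.46. The 9 distances from a DS-S to a Y-S library ran from 0.825 to 1.45 with a median of 1.03, below the medians of 1.08 within DS-S and 1.27 within Y-S. The group labels held 13.4% of the variation between the 6 profiles, where the 20 possible assignments of 3 and 3 libraries averaged 20% (exact permutation test, one-sided, p = 0.8). Without Y-S replicate 3 the share was 23.7% (exact permutation test, one-sided, p = 0.4). Fewer libraries raise the average share over assignments, so the 20% for 6 libraries is not the background of that value.

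**Figure D1:**
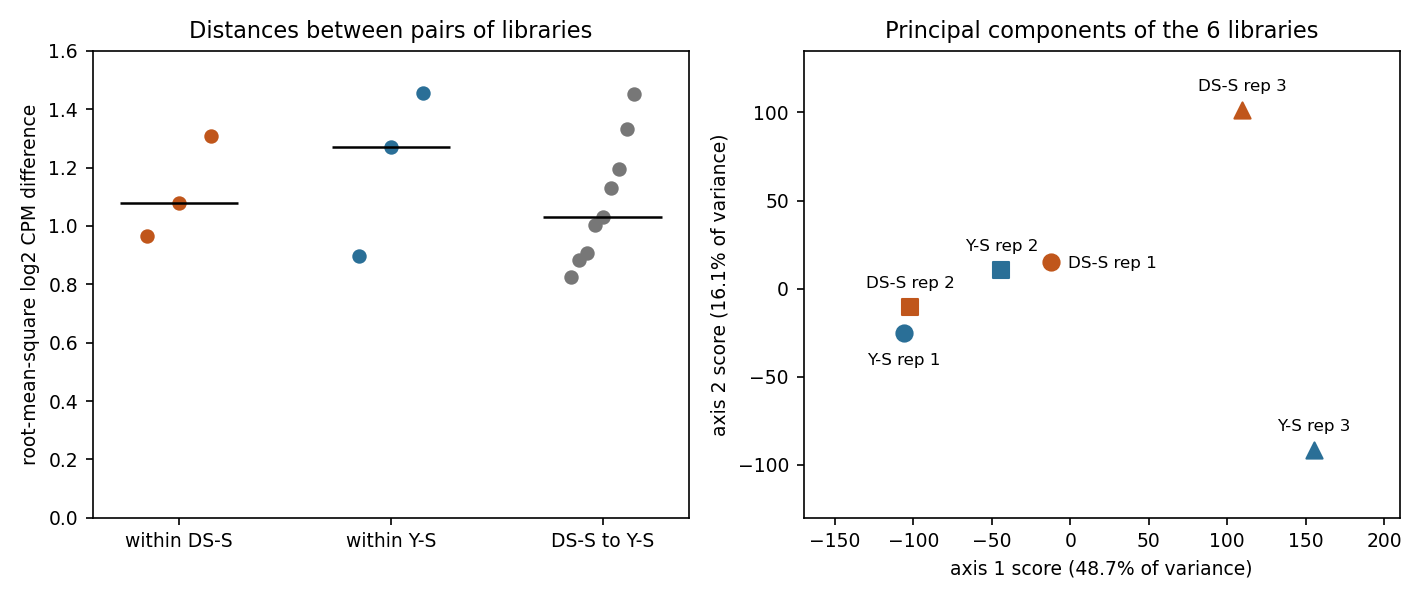
Left, each point is the root-mean-square difference in log2 CPM between a pair of libraries, within DS-S (3 pairs), within Y-S (3 pairs) and from DS-S to Y-S (9 pairs), with a bar at the median. Right, scores of the 6 libraries on the first and second principal components, holding 48.7% and 16.1% of the variance. Distances between the groups run from 0.825 to 1.45 and those within a group from 0.896 to 1.46, and replicate 3 of both groups lies at the right end of the first component.

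Variation inside each group ran along an axis that both groups shared. The first principal component of the 6 libraries held 48.7% of the variance, with scores of -12.2, -102 and 109 in DS-S replicates 1, 2 and 3 and -106, -44.0 and 155 in Y-S replicates 1, 2 and 3. The group means on it were -1.71 in DS-S and 1.71 in Y-S (exact permutation test, two-sided, p = 1). Replicate 3 was the highest library of both groups at once in 22.5% of tested genes and the lowest of both in 23.4%. For replicate 1 the shares were 8.83% and 8.47%, and for replicate 2 they were 10.4% and 9.94%.

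Gene by gene, DS-S against Y-S gave no call. edgeR's quasi-likelihood test, fitted to all 21 libraries, called 0 of the 38211 genes tested (0%) at a Benjamini-Hochberg adjusted p under 0.05, and the smallest adjusted p was 1. At an unadjusted p under 0.05, 348 genes passed, of which 179 were higher and 169 lower in DS-S. They are 0.911% of the genes tested, below the share of 0.05 that this threshold passes when no gene differs. In 197 of the 348, 1 library held more than 50% of the CPM summed over the 6 libraries, a share not counted over all tested genes. In 176 the 3 DS-S libraries lay entirely above or below the 3 Y-S libraries, against 5.56% of all tested genes. DESeq2 called 18 genes (0.0471%), 9 higher and 9 lower. In 17 of the 18 a single library held more than 50% of the summed CPM, and 2 of the 18 had no overlap between the groups. limma voom with library weights called 0, with 2309 genes at an unadjusted p under 0.05 and a smallest adjusted p of 0.141. Those 2309 genes exceed a share of 0.05, so the place of the unadjusted count against that share depends on the fit.

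Differences between the group means were small beside the spread between libraries. The median absolute log2 fold change of DS-S over Y-S was 0.27, and the median standard error (SE) was 0.76. The median SD between libraries of a group was 0.61 on the log2 scale. A mean difference above the pooled SD was seen in 18.0% of tested genes. Of all genes tested, 2124 (5.56%) had no overlap between the 3 DS-S and 3 Y-S libraries, 1069 of them higher in DS-S (2.80%) and 1055 lower (2.76%). These counts describe the libraries. When no gene differs, up to a share of 0.1 would show no overlap in either direction between 3 and 3 libraries. The 5.56% lies below that share, and the 16.5% of tested genes without overlap between DS-L and Y-L lies above it. Neither was tested against it. Whether the shares of the 2 suffixes differ beyond the spread between libraries was not tested.

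In genes of every abundance the difference between the group means was smaller than the spread between libraries. Genes were placed in bands by their mean FPKM over the 6 libraries, a level per length deposited by the authors. In 12863 genes at 10 to 100 FPKM the median absolute log2 fold change was 0.16, against a median SD between libraries of 0.42. For 1837 genes at 100 to 1000 FPKM these values were 0.18 and 0.56, and for 100 genes at 1000 FPKM or more they were 0.24 and 0.87. Genes without overlap made up 7.49% of the 7038 genes under 1 FPKM, 6.29% of the 16373 genes at 1 to 10 FPKM, 4.03% at 10 to 100 FPKM, 2.61% at 100 to 1000 FPKM and 1% at 1000 FPKM or more.

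**Figure D2:**
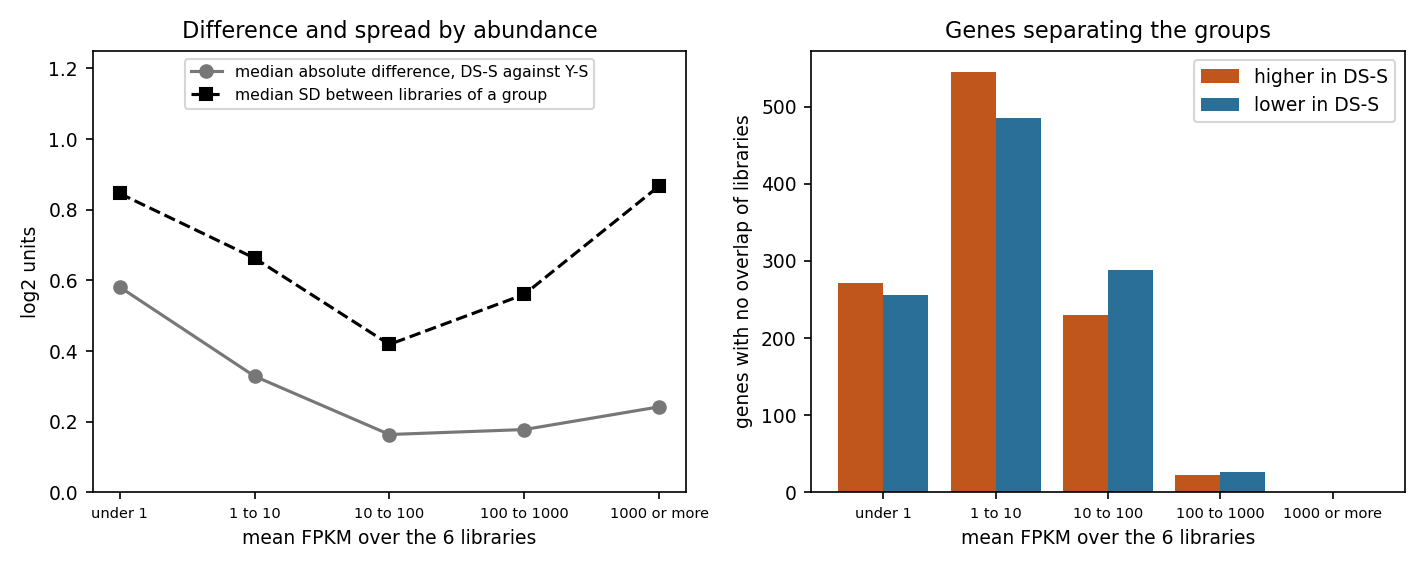
Left, the median absolute log2 fold change of DS-S over Y-S and the median SD between libraries of a group, in log2 units, for genes in 5 bands of mean FPKM. Right, the number of genes in each band whose 3 DS-S libraries lie entirely above or below the 3 Y-S libraries. The median spread between libraries exceeds the median difference between the groups in every band, from 0.85 against 0.58 under 1 FPKM to 0.87 against 0.24 at 1000 FPKM or more.

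The set of dominant transcripts was largely common to the single treatments. Of the 100 genes with the highest mean FPKM in DS-S, 85 were also among the 100 highest in Y-S. Of the 115 genes in either list, 16 differed by 2-fold or more between the group means, 1 had no overlap between the groups, and 2 had an unadjusted edgeR p under 0.05. Over all tested genes the shares were 12.0% at 2-fold or more, 5.56% without overlap and 0.911% at that p. The most counted gene of each library, not the same gene in all of them, took 1.65%, 1.90% and 0.634% of the counts in DS-S libraries and 2.06%, 1.81% and 1.17% in Y-S libraries. One gene held this place in DS-S replicate 2 and in Y-S replicates 1 and 2, and each of the other libraries had a different one.

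Transcripts counted in every library of one treatment and in none of the other were mostly low. Over all 97500 assembled genes, 446 had a count in each DS-S library and none in any Y-S library, and 192 had a count in each Y-S library and none in any DS-S library. The median of their mean counts was 2.33 in DS-S and 2 in Y-S, and the highest was 87.7 in DS-S and 10 in Y-S. With at least 5 counts asked of every library, 5 genes were left on the DS-S side and 0 on the Y-S side, and all 5 also had counts in ck. The DS-S libraries were the deeper ones, and the part of depth in the larger DS-S number was not tested.

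At most 2 identifiers are named in each direction, as the genes with the smallest unadjusted edgeR p among those that differed 2-fold, averaged 5 CPM or more in whichever group was higher, and separated the 3 DS-S from the 3 Y-S libraries without overlap. None of the 4 passed the adjusted threshold, so their values are descriptions. TRINITY_DN3295_c0_g1 stood at 19.6, 36.01 and 26.0 CPM in DS-S libraries, against 8.52, 12.9 and 13.6 CPM in Y-S libraries. All 3 DS-S libraries lay above all 3 Y-S libraries, with means of 27.2 ± 8.29 CPM in DS-S and 11.7 ± 2.77 CPM in Y-S (SD, n = 3 each). On the log2 scale the fold change was 1.22 ± 0.38 (SE), with an edgeR unadjusted p of 0.00454 and an adjusted p of 1. At suffix L it averaged 26.1 ± 5.34 CPM in DS-L and 21.4 ± 5.07 CPM in Y-L (SD, n = 3 each), and DS-L over Y-L gave 0.29 ± 0.37 (SE) on the log2 scale, with an edgeR adjusted p of 0.853. It averaged 11.0 ± 4.77 CPM in the combined treatment at suffix S and 9.19 ± 1.43 CPM in ck (SD, n = 3 each). The 3 ck libraries, at 7.55 to 10.2 CPM, lay below all DS-S libraries and overlapped with the Y-S libraries.

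TRINITY_DN101980_c0_g1 was nearly absent from the Y libraries. It had 13, 213 and 67 counts in DS-S libraries, against 2, 0 and 0 counts in Y-S libraries, or 0.625, 11.4 and 3.36 CPM against 0.109, 0 and 0 CPM. All 3 DS-S libraries were higher than the Y-S libraries, and they differed widely among themselves. With library sizes taken into account, the summed counts of DS-S were 132 times those of Y-S, with an exact 95% binomial interval of 36.3 to 1099 that covers counting error only. The edgeR unadjusted p was 0.00950 and the adjusted p was 1. Its level was uneven elsewhere too, with a range of 0 to 2.27 CPM in DS-L, 0 to 0.0544 CPM in Y-L and 0 to 5.20 CPM in ck. In the combined treatment at suffix S it ran from 0 to 22.3 CPM, the top value in DS+Y-S replicate 1, a library with 36755 genes detected where the others in the series had 47279 or more.

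Among genes lower in DS-S, TRINITY_DN92260_c0_g1 stood at 0.289, 0.589 and 0.601 CPM in DS-S libraries, against 45.2, 4.74 and 0.687 CPM in Y-S libraries. The groups did not overlap, but Y-S replicate 3 lay close to the highest DS-S library, and the Y-S mean of 16.9 ± 24.6 CPM (SD, n = 3) rested mostly on replicate 1. The fold change was -5.08 ± 1.72 (SE) on the log2 scale, with an edgeR unadjusted p of 0.00843 and an adjusted p of 1. Without Y-S replicate 1 it was -2.45 on the log2 scale, with an edgeR unadjusted p of 0.14, and without any other of the 6 libraries it lay between -5.65 and -4.81. Means at the other suffix were 0.0961 ± 0.0390 CPM in DS-L and 1.36 ± 1.14 CPM in Y-L, and the ck mean was 0.753 ± 0.486 CPM (SD, n = 3 each). TRINITY_DN1665_c0_g1 was steadier, at 45.9, 54.6 and 24.6 CPM in DS-S libraries against 94.7, 58.0 and 125 CPM in Y-S libraries. The lowest Y-S library lay just above the highest DS-S library. Its means of 41.7 ± 15.4 CPM in DS-S and 92.6 ± 33.6 CPM in Y-S (SD, n = 3 each) stood -1.15 ± 0.40 (SE) apart on the log2 scale, with an edgeR unadjusted p of 0.0103 and an adjusted p of 1. Without DS-S replicate 3 it was -0.88, and without Y-S replicate 3 it was -0.87, with edgeR unadjusted p of 0.0559 and 0.0580. At suffix L the order of the means was the other way, with 64.2 ± 18.4 CPM in DS-L and 51.1 ± 7.66 CPM in Y-L (SD, n = 3 each). DS-L over Y-L gave 0.33 ± 0.40 (SE) on the log2 scale, with an edgeR unadjusted p of 0.418. The gene was chosen by its difference at suffix S, which is part of the change between suffixes. The test of that change between suffixes gave -1.48 ± 0.57 (SE) on the log2 scale, with an edgeR unadjusted p of 0.0172 and an adjusted p of 1.

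**Figure D3:**
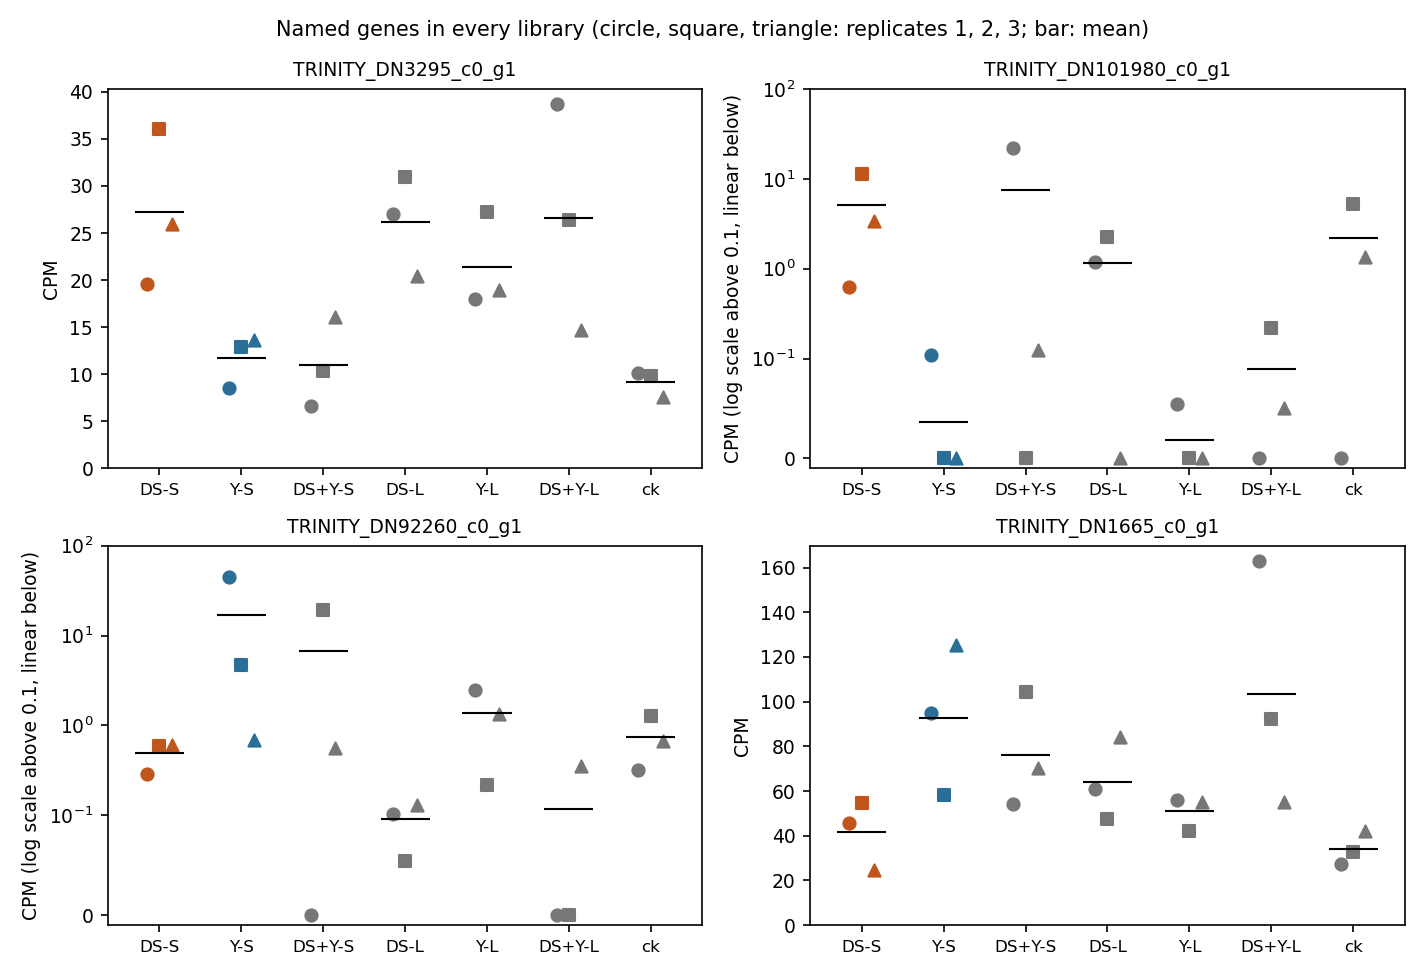
CPM of the 4 named genes in every library, by group, with circles, squares and triangles for replicates 1, 2 and 3 and a bar at the group mean. The vertical axes of TRINITY_DN101980_c0_g1 and TRINITY_DN92260_c0_g1 are logarithmic above 0.1 CPM and linear below it. In TRINITY_DN3295_c0_g1 the DS-S libraries lie at 19.6 CPM or more and the Y-S libraries at 13.6 CPM or less.

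The same 3 conditions of fold, level and no overlap, without a p, were met by more genes lower in DS-S than higher. A 2-fold difference with 5 CPM or more in the higher group was seen in 239 genes higher in DS-S and 386 lower. Of these, 30 (0.0785% of the genes tested) were higher in DS-S and 79 (0.207%) were lower in DS-S without overlap. The 30 genes had absolute log2 fold changes of 1.01 to 6.87 with a median of 1.37, and the 79 had 1.005 to 5.08 with a median of 1.54. Mean levels in the higher group reached 370.1 CPM among the 30 and 1567 CPM among the 79. With the filter on low counts, edgeR called no gene of either set, and DESeq2 called none of them either. Without that filter edgeR called 2 of the 30 and 27 of the 79, among 255 calls in 97456 genes. Both sets were chosen on the libraries compared in that fit, so these calls are no separate support. Replicate 3 was the highest DS-S library in 19 of the 30 genes, against 36.9% of all tested genes, and the highest Y-S library in 46 of the 79, against 39.6% of all tested genes. Among all genes with the 2-fold difference and 5 CPM, overlapping or not, replicate 3 was likewise highest in 156 of the 239 and 244 of the 386. Its part in these counts was not tested.

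Summed over the set, the 79 genes lower in DS-S took 0.262%, 0.256% and 0.206% of the counts in DS-S libraries, against 0.449%, 0.598% and 0.819% in Y-S libraries. Since the genes were picked for lying apart, this difference is a description with no test. Libraries of the combined treatment at suffix S and of ck played no part in the choice. For the 79 genes, the libraries within each of these groups lay further apart than those within DS-S or within Y-S. Choosing genes for no overlap favours a small spread within DS-S and Y-S, so this too is a description. In the combined treatment at suffix S the same genes took 0.293%, 0.250% and 1.79%, and in that at suffix L 0.572%, 0.584% and 0.949%. They took 0.281%, 0.226% and 0.729% in ck replicates 1, 2 and 3, so ck spanned most of the range from DS-S to Y-S. Replicate 3 was the highest library for the 79 genes in 6 of the 7 groups, DS-S being the exception. The 30 genes higher in DS-S took 0.176%, 0.148% and 0.209% in DS-S libraries, against 0.0773%, 0.0854% and 0.0544% in Y-S libraries, and 0.0850%, 0.109% and 0.105% in ck replicates 1, 2 and 3. By group means of log2 CPM, ck lay nearer to Y-S for 25 of these 30 genes and nearer to DS-S for 5. For the 79, ck lay nearer to DS-S for 48 and nearer to Y-S for 31, and it lay between the 2 treatments for 59. Over all tested genes ck lay nearer to DS-S in 52.6% and between the treatments in 23.8%. Those genes were not chosen for a gap or for a level in the higher group, so they are no like background. Whether that choice by itself places ck nearer to the lower group was not tested.

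**Figure D4:**
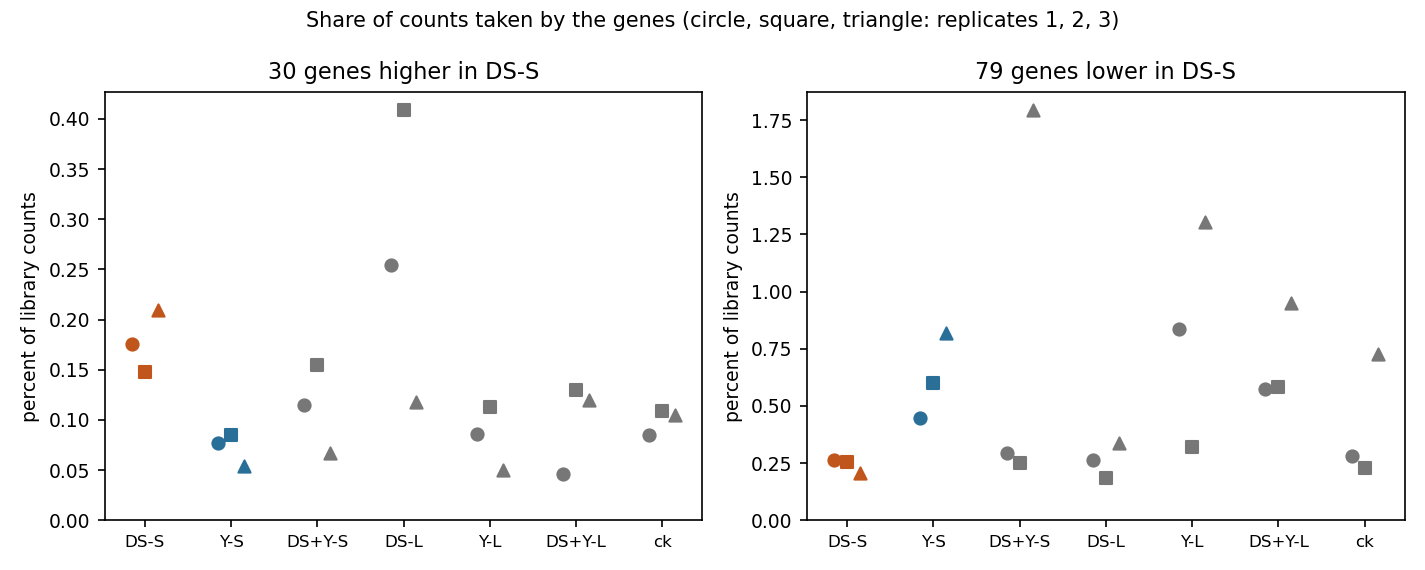
Percent of each library's counts taken by the 30 genes higher in DS-S (left) and the 79 genes lower in DS-S (right), chosen for no overlap between DS-S and Y-S. Circles, squares and triangles are replicates 1, 2 and 3. The 79 genes range from 0.226% to 0.729% within ck and reach 1.79% in 1 library of the combined treatment at suffix S.

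The libraries of suffix L had no part in choosing these genes, and DS-L and Y-L share no library with DS-S and Y-S. The fold change of DS-L over Y-L had the same sign as that of DS-S over Y-S in 25 of the 30 genes higher in DS-S and in 70 of the 79 lower, against 58.8% of all tested genes. Among tested genes with 5 CPM or more in the higher of DS-S and Y-S, the share was 62.1%. The median fold change of DS-L over Y-L was 1.23 on the log2 scale for the 30 and -1.69 for the 79, beside -0.00224 for all tested genes. The 3 DS-L libraries lay entirely below the 3 Y-L libraries in 37 of the 79 genes, an arrangement of 9.01% of all tested genes, and entirely above them in 2. In 7 of the 30 genes they lay entirely above, as in 7.44% of all tested genes, and in none of the 30 entirely below. Among the tested genes at 5 CPM or more, DS-L lay entirely below Y-L in 10.6% and entirely above in 6.82%. The 79 genes took 0.262%, 0.185% and 0.337% of the counts in DS-L libraries and 0.836%, 0.319% and 1.30% in Y-L libraries. The 30 took 0.255%, 0.409% and 0.118% in DS-L libraries and 0.0857%, 0.112% and 0.0496% in Y-L libraries. One library per group led most of these genes. DS-L replicate 2 was the highest DS-L library in 25 of the 30, against 42.4% of all tested genes, and Y-L replicate 3 the highest Y-L library in 58 of the 79, against 31.6%. Replicate 3 led most of the 79 genes in both Y-L and Y-S, and its part in their shared direction was not tested. By differences of mean log2 CPM with each L library left out in turn, the same sign was kept by 23 to 28 of the 30 and 65 to 71 of the 79.

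The same conditions asked of 5 of the 6 libraries were met by more genes, because fewer libraries had to lie apart. Leaving out 1 library at a time gave 75 to 150 genes higher in DS-S, with the same sign at suffix L in 53.6% to 82.7% of them, the lowest share without Y-S replicate 3. It gave 140 to 225 genes lower in DS-S, with the same sign in 68.7% to 88.9%, the lowest share without DS-S replicate 3. No overlap in the same direction at suffix L was seen in 46.8% of the 79 and 23.3% of the 30. For genes lower in DS-S it was 30% without DS-S replicate 2 and 21.3% without Y-S replicate 3, and between 33.8% and 52.4% without any other library. For genes higher in DS-S it was 14.7%, 13.3% and 13.8% without DS-S replicates 1, 2 and 3 and 9.6% without Y-S replicate 3, and it was 26.9% and 21.2% without Y-S replicates 1 and 2. Across all 38211 tested genes the fold changes of the 2 suffixes correlated at r = 0.294 (Spearman rho = 0.239), a description over genes of libraries that share their scaling.

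**Figure D5:**
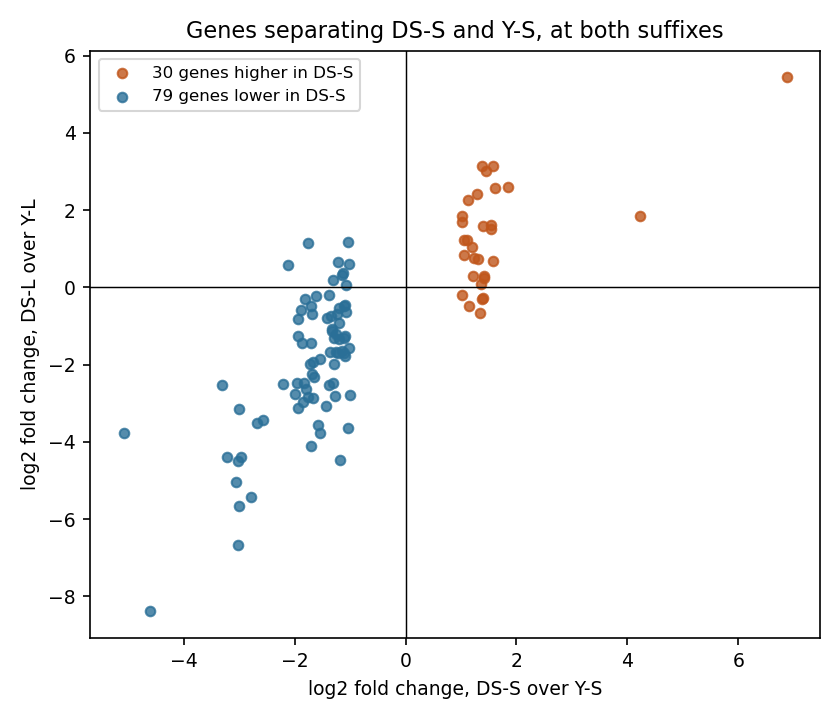
Each point is a gene, with the log2 fold change of DS-S over Y-S on the horizontal axis and that of DS-L over Y-L on the vertical axis. The horizontal gap is fixed by the choice of genes, and 25 of the 30 genes higher in DS-S and 70 of the 79 lower keep their sign on the vertical axis.

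Fits that used both suffixes asked whether DS and Y differ when 6 libraries stand on each side, and whether their difference changes between suffixes. DS against Y over both suffixes gave 0 calls in edgeR (0%), with 2522 genes at an unadjusted p under 0.05 (6.6%) and a smallest adjusted p of 0.605. Among these 2522 were 18 of the 30 genes higher and 58 of the 79 lower in DS-S, sets chosen on 6 of the 12 libraries compared in this fit. DESeq2 called 165 genes and limma voom 1251. DS-L against Y-L alone gave 0 calls in edgeR (0%), with 3427 genes at an unadjusted p under 0.05 and a smallest adjusted p of 0.258. The test of whether the difference between DS and Y itself differed between suffix S and suffix L called 0 genes (0%), and 1030 passed without adjustment (2.70%), while DESeq2 called 30 genes and limma voom 224. The median absolute log2 fold change was 0.54 for DS-L over Y-L, beside 0.27 for DS-S over Y-S, with similar median SDs between libraries of a group of 0.64 at suffix L and 0.61 at suffix S. The group labels held 30.9% of the variation among the 6 libraries at suffix L (exact permutation test, one-sided, p = 0.1, the smallest possible), beside 13.4% at suffix S. The difference between these shares was not tested.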

How the data were processed

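Leaf RNA was measured in 21 libraries of 7 groups, assigned from their titles. The deposited table holds whole-number counts for each assembled gene. It also holds FPKM values made by the authors, as the columns are named per the file headers. The assembler, aligner and counting program were not given in the sources used here. Identifiers come without names, and reads of near-identical copies may be split between identifiers. The count test was edgeR 4.0.16, run in R 4.3.3 (filterByExpr by group, TMM scaling, glmQLFit and glmQLFTest over all 21 libraries, Benjamini-Hochberg adjustment), which tested 38211 of 97500 genes holding at least 98.7% of each library's counts. The dispersion over all groups gave a coefficient of variation of 0.619. SEs were taken from the fold change and its F value, and log2 CPM used a prior count of 2. FPKM served to rank levels between genes. DESeq2 1.42.0, limma 3.58.1 and other settings were alternatives, and the procedure was tested on simulated data. Libraries of a group differed beyond sampling noise, with a chi-square per degree of freedom of 30.6 to 140.01. Named genes were, in each direction, the 2 called genes of largest fold, or failing calls of smallest p, with a 2-fold difference, 5 CPM in the group with more and groups that did not overlap. The libraries, gene sets and rules were chosen with earlier results of these data known.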

Additional observations from a re-analysis of the deposited data

How the results depend on the processing

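For DS-S against Y-S, edgeR called 0 genes with DESeq2 size factors, with a robust spread, with only the 6 libraries, without DS+Y-S replicate 1 and without any 1 of the 6 libraries, and limma on log2(FPKM + 1), chosen after seeing the data, also called 0. DESeq2 called 18, and edgeR without a filter on low counts 255 of 97456 genes, of which 250 were also tested with the filter, 227 had more than 50% of their summed CPM in 1 library and 41 had no overlap. How many of all genes in that fit had 1 such library or no overlap was not counted. In that unfiltered fit TRINITY_DN101980_c0_g1 and TRINITY_DN92260_c0_g1 reached edgeR adjusted p of 9.83e-08 and 9.86e-08 with log2 fold changes of 6.86 and -5.08, and the cause was not tested. The change between suffixes had 291 calls without the filter, 224 in limma voom and 30 in DESeq2. DS against Y over both suffixes had 1233, 1251 and 165 in the same order, and 0 to 1 when 1 library was left out, with the 1 call without Y-L replicate 2. Unadjusted counts for DS-S against Y-S ran from 301 to 421 when 1 of the 6 libraries was left out and stood at 537 without DS+Y-S replicate 1.

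As replicate block, the number in the titles left 0 calls, with 306 genes at an unadjusted p under 0.05 over all 21 libraries and 713 over the 6. The labels do not say that equal numbers pair the samples, and whether they mark a shared factor was not tested. Departures of same-numbered DS-S and Y-S libraries from their group means correlated across genes at r = 0.00123, 0.172 and 0.496 for replicates 1, 2 and 3, and 3 of the 6 libraries correlated best with their own number. DS-S replicate 2 and Y-S replicate 1, which do not share a number, correlated as strongly, at r = 0.496.

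The conditions behind the sets of 30 and 79 genes, counted after seeing the data, were also met by 30 and 79 genes with DESeq2 size factors. With overlap judged on FPKM they were met by 29 and 77 genes, not all of them from the first sets. Of the first 30 and 79 genes, 25 and 71 had no overlap on FPKM. Leaving out 1 library gave 75 to 150 and 140 to 225. The 30 became 75, 150 and 116 without DS-S replicates 1, 2 and 3, and 108, 80 and 125 without Y-S replicates 1, 2 and 3. The 79 became 140, 190 and 198, and 225, 152 and 202, in the same order. The share of variation between the groups ran from 15.2% to 23.7% with 1 library left out. Fewer libraries raise the average share over assignments, so these values are not on a par with the 13.4% of all libraries. With 1 library left out, the difference in genes detected ran from 891 to 3741. The difference in the count share of the 100 most abundant genes ran from -0.638 to 3.35 percentage points, negative without Y-S replicate 3 and, at -0.596, without DS-S replicate 1. The median SE of 0.76 on the log2 scale is near the size of a 2-fold change, so single genes changed 2-fold could be missed at this spread.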
